A study of Mus musculus with 16 samples.

Results

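The 35 genes described here carry glucose from its uptake to pyruvate and lactate, pass pyruvate on to the mitochondrion, or belong to the oxygen-sensing system that acts on both. They were chosen by name: each gene identifier in the count files was matched to its mouse symbol, and the identifiers that carry the 35 symbols were kept. A total of 36 identifiers matched, because Aldoa has a second one with at most 1.29 CPM in any library (CPM is a gene's count relative to its library's total, which was scaled by TMM). They come from 55335 identifiers in the files of the libraries with an age and 54532 in the others. The material was RNA of thymic DP cells, the stage at which a thymocyte carries CD4 and CD8 together, sorted from mice by flow cytometry and sequenced in 16 bulk libraries. Of the 5 groups, 3 have an age in their labels: young WT (3 libraries), old WT (4) and young METTL3 KO (3). The remaining groups, WT (3) and METTL3 KO (3), have none. METTL3 is the enzyme that writes the m6A mark on RNA. The labels give neither the ages in weeks, the strain, the deleted part of Mettl3, nor the promoter of any Cre, and they do not say that replicates came from separate mice, so a p-value here measures the spread between these libraries. In bulk RNA, fewer cells of a type and less RNA per cell cannot be told apart.

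Glycolysis splits glucose into pyruvate in the cytosol and yields ATP without oxygen. Pyruvate is then either reduced to lactate by lactate dehydrogenase and exported, or carried into the mitochondrion and turned into acetyl-CoA by the pyruvate dehydrogenase complex, which the PDK kinases switch off. When oxygen falls, the prolyl hydroxylases encoded by Egln genes stop marking HIF-1α for VHL, and the stabilised factor pairs with ARNT and raises many genes of glucose uptake, glycolysis and lactate export, as well as Pdk1, Bnip3 and Egln3. In the thymus, the cycling cells before the DP stage rely on glycolysis, and most DP cells are small, resting cells.

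The libraries were compared within 2 sets, those with an age and those without, because the files of the 2 sets differ. Reads not aligned were 0.577% to 0.826% of all entries with an age and 50.5% to 52.2% without. Reads outside genes were 47.5% to 51.2% and 7.23% to 15%, also of all entries, those not aligned included. Gene counts summed to 9781368 to 10307780 per library with an age and 10575795 to 16167074 without. Counts of Mettl3 itself were 678, 656 and 591 for young WT, against 626, 653 and 647 for the libraries labelled young KO, a log2 difference of 0.00 ± 0.08 (SE; edgeR adjusted p = 1), so the count of this gene gives no check of these labels. In the set without an age, Mettl3 had 835, 742 and 692 counts in WT and 394, 441 and 357 in KO, a log2 difference of -0.58 ± 0.18 (edgeR adjusted p = 0.0189). The 12 markers of DP cells, Cd4, Cd8a and Rag1 among them, were above 0 in every library. In KO libraries without an age, 24% of all genes were called lower and 29.9% higher. Of the markers, 6 of 12 DP markers (Rag1, named after its value was seen, by -2.44 ± 0.19 on the log2 scale, SE) and 7 of 12 proliferation markers were lower. Higher were 10 of 12 B cell markers and 5 of 11 tested myeloid and dendritic markers. Of these lists, no DP or proliferation marker was at 0 in a library of this set, and the B cell and myeloid lists had 1 gene at 0 in WT replicate 1, and the myeloid list 1 in KO replicate 3. Sex, read from Xist and Y-linked genes, was male in the 3 WT libraries without an age and female, female and male in the KO libraries beside them, and both sexes were present in each group with an age. In the set without an age, a fit with a sex covariate therefore rests its KO difference on KO replicate 3 against WT.

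Levels between genes were compared per kilobase of exon, and the 3 young WT libraries set the order. Ldhb, the lactate dehydrogenase subunit that predominates in heart-type enzyme, stood highest with 256 ± 18.1 CPM per kilobase (SD, n = 3). Ldha, the muscle-type subunit, followed with 123 ± 8.85, and Pgk1, which makes the first ATP of the pathway, with 93.7 ± 2.75. Next came Pkm (pyruvate kinase, the last step) at 83.9 ± 1.5, Pdha1 (the catalytic α subunit of pyruvate dehydrogenase) at 69.3 ± 1.56 and Eno1 (enolase) at 62.3 ± 2.13 CPM per kilobase. The libraries of each of these 6 genes lay clear of those of the next gene in the order. The length was the union of all annotated exons of a gene, and the order depends on it. Ldhb and Ldha had 402 and 408 CPM before division by 1570 and 3310 bases. Gpi1 (glucose phosphate isomerase, 39.4 ± 1.1), Slc16a1 (the lactate transporter MCT1, 39.1 ± 2.43) and Pdhb (the β subunit of pyruvate dehydrogenase, 37.4 ± 2.03) overlapped with their neighbours. Egln1, the main oxygen-sensing hydroxylase, stood at 32.8 ± 1.9 and Hif1a at 28.7 ± 0.501 CPM per kilobase. At the other end were Eno2 (0.62 ± 0.197), Hk2 (0.398 ± 0.112), Slc16a3 (0.304 ± 0.0524) and Aldoc (0.234 ± 0.0954), forms of these enzymes and transporters best known from neurons, muscle or hypoxic cells.

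**Figure D1:**
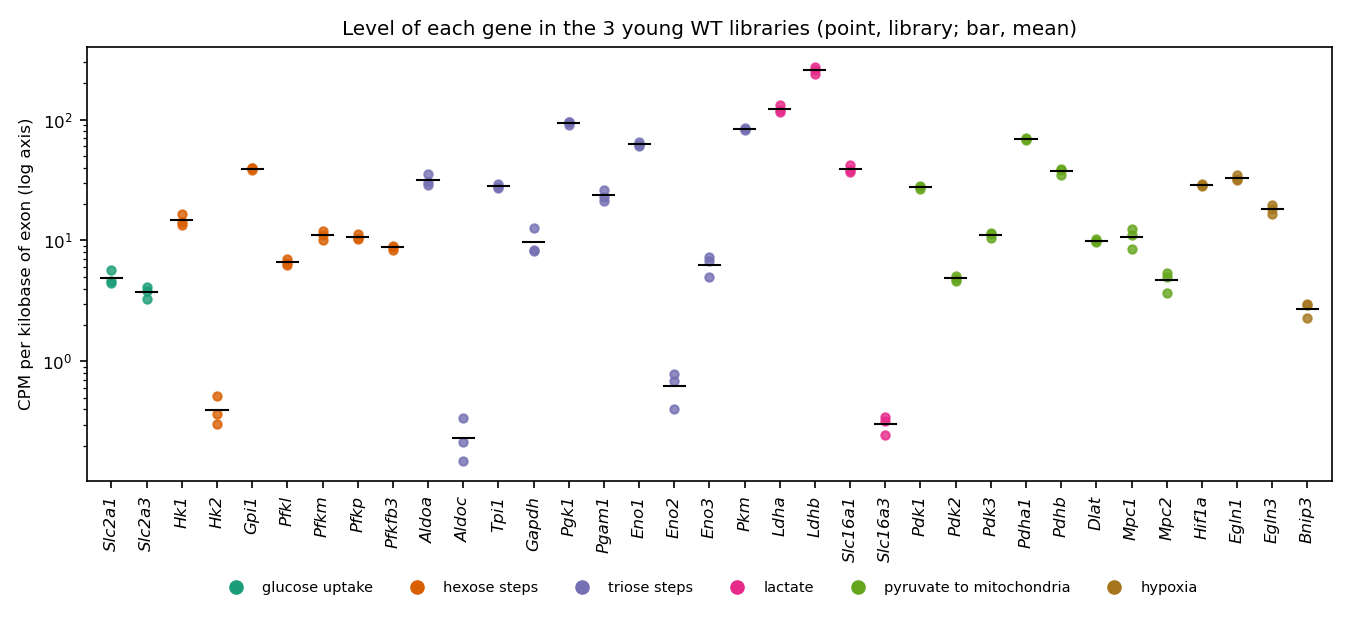
Level of each of the 35 genes in the 3 young WT libraries, in CPM per kilobase of exon on a log axis (points, libraries; bars, means; colours, role). Ldhb is highest at 256 and Aldoc lowest at 0.234 CPM per kilobase.

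Gapdh, usually among the most abundant mRNAs of a cell, had 9.77 ± 2.62 CPM per kilobase in young WT, below Tpi1 of the step before it (28.1 ± 1.11). A share of 25.1% of the 50-base words in Gapdh transcripts also occurs in transcripts of 223 other genes, and how reads that match several genes were counted is not stated in the labels. The same share is 53.9% for Pgk1, 47.2% for Bnip3, 36.2% for Pgam1, 26.3% for Mpc1, 26% for Eno1 and 25.8% for Pkm. It is 21% for Ldhb, 15.8% for Gpi1, 12.9% for Pdha1 and 11.4% for Pdhb. The levels of these genes, and so their places in the order above, are uncertain. Eno3, Slc16a1, Pdk1, Pdk2, Pdk3, Dlat, Egln1 and Egln3 share 0 such words with another gene. Exons of Mpc1 (23.1% of their bases), Bnip3 (22.3%), Pdha1 (16.1%) and Gpi1 (11.5%) overlap a gene on the opposite strand, those of Pkm (15.3%) and Pfkm (10.2%) a gene on the same strand, and the strand setting of the counting is not given in the sources used here.

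Where several genes encode the same activity, 1 usually carried most of the level. Hk1 made up 96.9% to 97.8% of hexokinase CPM per kilobase in young WT, Slc16a1 99.1% to 99.4% of the 2 monocarboxylate transporters, and Eno1 88.2% to 92% of the 3 enolases. Per kilobase, phosphofructokinase, the committing step of glycolysis, was spread over Pfkm (38.9 ± 2.32%), Pfkp (37.8 ± 2.81%) and Pfkl (23.3 ± 0.548%; SD, n = 3). The exon lengths used were 3340 bases for Pfkm, 13401 for Pfkp and 6675 for Pfkl. In CPM, not divided by length, Pfkp was highest (143 ± 6.33), with Pfkl at 44.1 ± 2.6 and Pfkm at 36.8 ± 3.37. Shares within a family thus depend on the annotated lengths. Pdk1 held 63.3 ± 0.311% of the 3 PDK genes, Pdk3 25.5 ± 0.814% and Pdk2 11.2 ± 0.514%.

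The libraries did not vary alike. Over the 28 genes with at least 100 counts in every library, the median coefficient of variation of CPM was 5.84% in young WT, 5.72% in young KO, 12.6% in old WT, 8.21% in WT without an age and 24% in KO without an age. The 3 young KO and 3 young WT libraries were thus the tightest groups. Among KO libraries without an age, replicate 3 was the highest of 3 for 14 of the 21 genes of the glycolytic steps and lactate. Its Eno1 level was 549 CPM against 168 and 216 in the other two, and its Gpi1, Pkm, Ldha and Ldhb levels were also the highest of the 6 libraries of this set. Old WT replicate 4 was the lowest of the 10 libraries with an age for 7 of the same 21 genes, and old WT replicate 3 was the highest for 13. Replicate 4 had the lowest summed level of proliferation markers (2718 CPM, against 4103 to 4967 in the other 9). Replicate 3 had the highest summed levels of B cell markers (2126 against 440.8 to 1007 CPM) and of myeloid and dendritic markers (720.9 against 95.99 to 150.6 CPM), and mt-Co1 took 5.10% of its gene counts against 1.01% to 1.42% in the other 9. The part of these markers in the glycolytic levels was not tested.

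**Figure D2:**
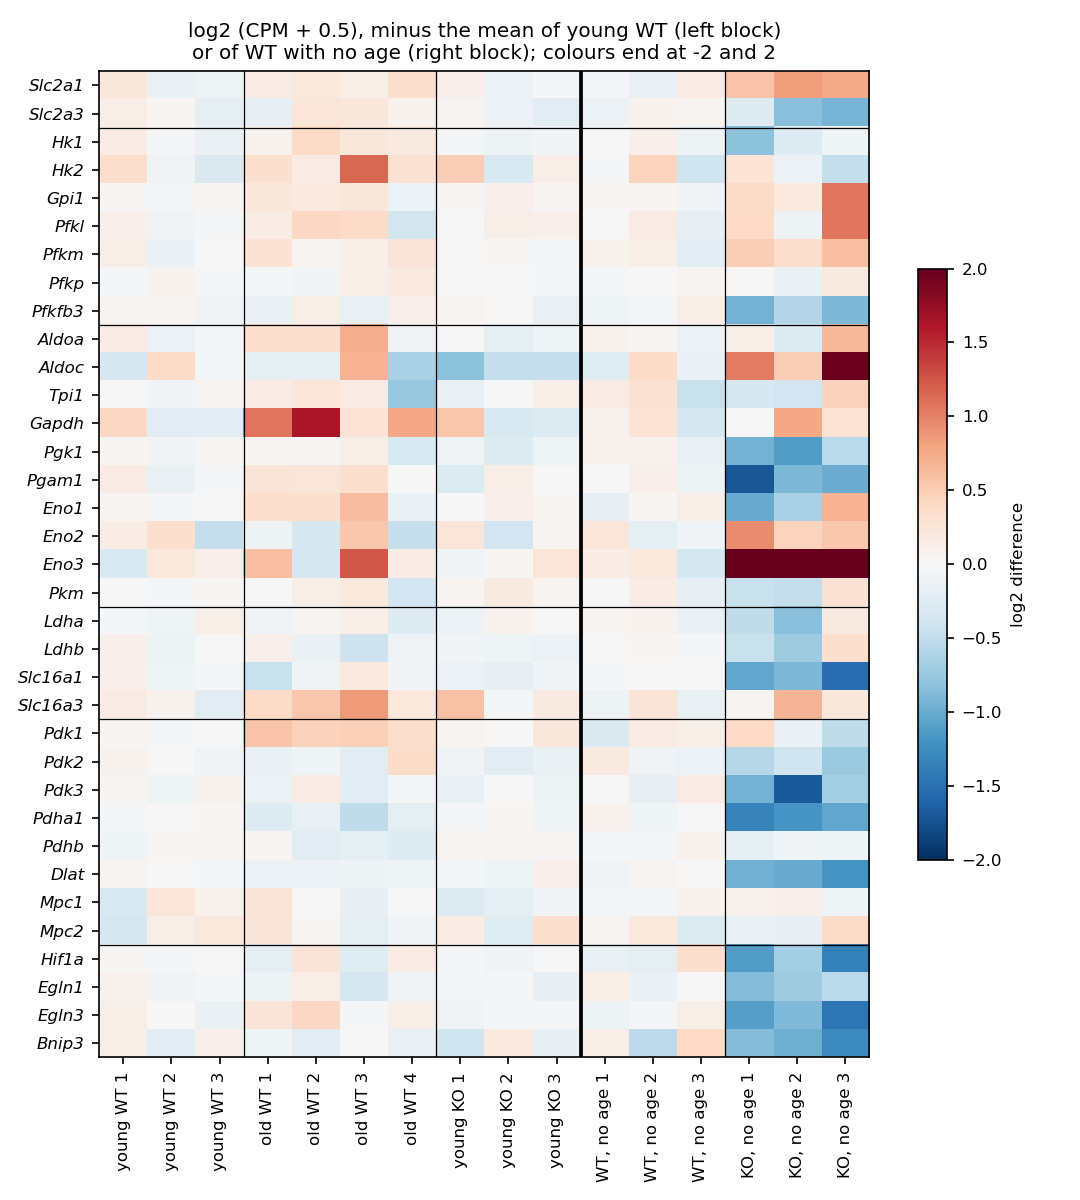
log2 (CPM + 0.5) of each gene (from top to bottom in order of role) in each library (columns), minus the mean of young WT for the 10 libraries with an age and minus the mean of WT without an age for the other 6. Red is higher and blue lower, with colours ending at -2 and 2; Eno3 is beyond 2 in the 3 KO libraries without an age, where Hif1a, Egln1, Egln3 and Bnip3 are blue.

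Setting old against young WT asks how these genes differ with age in DP cells. Pdk1 (ENSMUSG00000006494, mm10 chr2:71873224-71903858), whose product phosphorylates and stops pyruvate dehydrogenase, was higher in old WT. Its levels were 219.7, 207 and 215 CPM in young WT, against 317, 294, 297 and 273 in old WT. Every old library lay above every young one. The log2 difference was 0.47 ± 0.09 (SE; 1.38-fold; edgeR quasi-likelihood test, Benjamini-Hochberg adjusted p = 0.0454). It was the single gene called among 34 tested here (Aldoc and the second Aldoa identifier were too low to test), where 0.253% of 14228 genes were called. The call was close to the threshold: leaving out any 1 of the 6 young libraries, or old WT replicate 1 or 2, ended it, with adjusted p from 0.0668 to 0.37, and its log2 difference then lay between 0.43 and 0.49. Library-size scaling, a sex covariate and a fit of these 2 groups alone ended it too (0.0642 to 0.192). Markers of other cell types lay on the same side, though none passed the test: 10 of 10 tested B cell markers had a log2 difference above 0 (median 2.74, 8 with p under 0.05 before adjustment), as did 9 of 9 myeloid and dendritic (1.36) and 10 of 10 mature thymocyte markers (0.84), with 0 called by edgeR. The mean log2 CPM of B cell markers was 2.34, 3.57, 4.88 and 2.12 in the old libraries and 1.83, 1.37 and 1.69 in the young ones, without overlap. Without old WT replicate 3, which had the highest levels, the Pdk1 difference was 0.46 (adjusted p = 0.0453). The part of these markers in the differences with age was not tested.

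Pdha1, the target that PDK1 phosphorylates, had 253, 258 and 265 CPM in young WT and 215, 234, 182 and 226 in old WT. The groups did not overlap, and the log2 difference was -0.27 ± 0.09 with an edgeR adjusted p of 0.316 (unadjusted 0.0118). Dlat, the acetyltransferase of the same complex, had 50.6, 48.1 and 47 CPM in young and 44.9, 44.7, 45.3 and 45.7 in old WT, again without overlap (-0.11 ± 0.08). Pdhb had 136, 148 and 149.8 CPM in young and 149, 123, 126 and 121 in old WT, and here old WT replicate 1 lay among the young libraries (-0.15 ± 0.09). The other kinases, Pdk2 (0.01 ± 0.15) and Pdk3 (-0.04 ± 0.11), and the mitochondrial pyruvate carriers Mpc1 (0.02 ± 0.14) and Mpc2 (0.00 ± 0.16) had log2 differences within 1 SE of 0. Within the PDK genes, the share of Pdk1 was 63.3 ± 0.311% in young and 70.8 ± 3.3% in old WT, and its ranges, 63% to 63.6% and 67.1% to 73.6%, did not overlap.

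In the glycolytic steps, Gapdh, Aldoa (aldolase), Eno1 and Hk1 (hexokinase, which traps glucose in the cell) had p under 0.05 before adjustment and did not pass after it. Gapdh had 52.9, 34.2 and 34.1 CPM in young and 83.7, 124, 48 and 68 in old WT, and its highest young library (52.9) lay above its lowest old one, with a log2 difference of 1.00 ± 0.35. Aldoa had 103, 84.2 and 89.2 CPM in young and 116, 115, 152 and 87.2 in old WT (0.35 ± 0.15), and Eno1 347, 325 and 334 in young and 419.8, 420, 515 and 307 in old WT (0.31 ± 0.14). For both genes, old WT replicate 3 was the highest of the 10 libraries with an age, and replicate 4 lay within (Aldoa) or below (Eno1) the young range. Hk1 had 140.1, 122 and 113 CPM in young and 132, 162, 146 and 141 in old WT (0.22 ± 0.10). Without old WT replicate 3, the Aldoa and Eno1 differences were 0.20 and 0.19, and without replicate 4 they were 0.46 and 0.42. Hk2, Gpi1, Pfkl, Pfkm, Pfkp, Pfkfb3, Tpi1, Pgam1, Eno2 and Eno3 had p above 0.05 before adjustment, with log2 differences from -0.08 (Eno2) to 0.60 (Hk2).

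A total of 6 of 34 genes had p under 0.05, against 12.1% of all genes, and 4 of 34 did not overlap between the groups, against 9.77%, 2 of them higher (5.62% of all genes) and 2 lower (4.15%). Of the 34, 22 had a log2 difference above 0, where 51.1% of all genes did, and their median was 0.02 against 0.01 over all genes. The fourth gene without overlap was Slc16a3, the lactate exporter MCT4, with 1.85, 1.7 and 1.31 CPM in young and 2.24, 2.57, 3.32 and 1.93 in old WT (0.63 ± 0.30). Its counts, 19, 17 and 13 in young and 23, 26, 31 and 20 in old WT, are too few to fix the size of that difference. Ldha (-0.03 ± 0.10), Ldhb (-0.12 ± 0.11), Slc16a1 (-0.08 ± 0.12), Pkm (0.00 ± 0.12) and Pgk1 (-0.02 ± 0.10) did not pass. Neither did the glucose transporters Slc2a1 (0.20 ± 0.12) and Slc2a3 (0.09 ± 0.13), nor any of the 4 hypoxia genes: Hif1a stood at 0.01 ± 0.11, Egln1 at -0.09 ± 0.10, Egln3 at 0.20 ± 0.11 and Bnip3 at -0.13 ± 0.19. Hif1a had 149, 202, 143 and 187 CPM in old WT, where replicates 2 and 4 lay above and replicates 1 and 3 below the young libraries (172, 167 and 168).

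The listed neighbours of these pathways gave 0 calls with age. That holds for 14 tested genes of other glycolytic steps, 8 of the pentose phosphate pathway, 11 of pyruvate and lactate handling, 10 regulators of HIF, 17 other HIF targets and 15 regulators of glycolysis, of which 0, 1, 4, 0, 5 and 3 had p under 0.05 before adjustment in edgeR. DESeq2 also called 1 of the 35 genes, Pdk1, in this comparison.

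**Figure D3:**
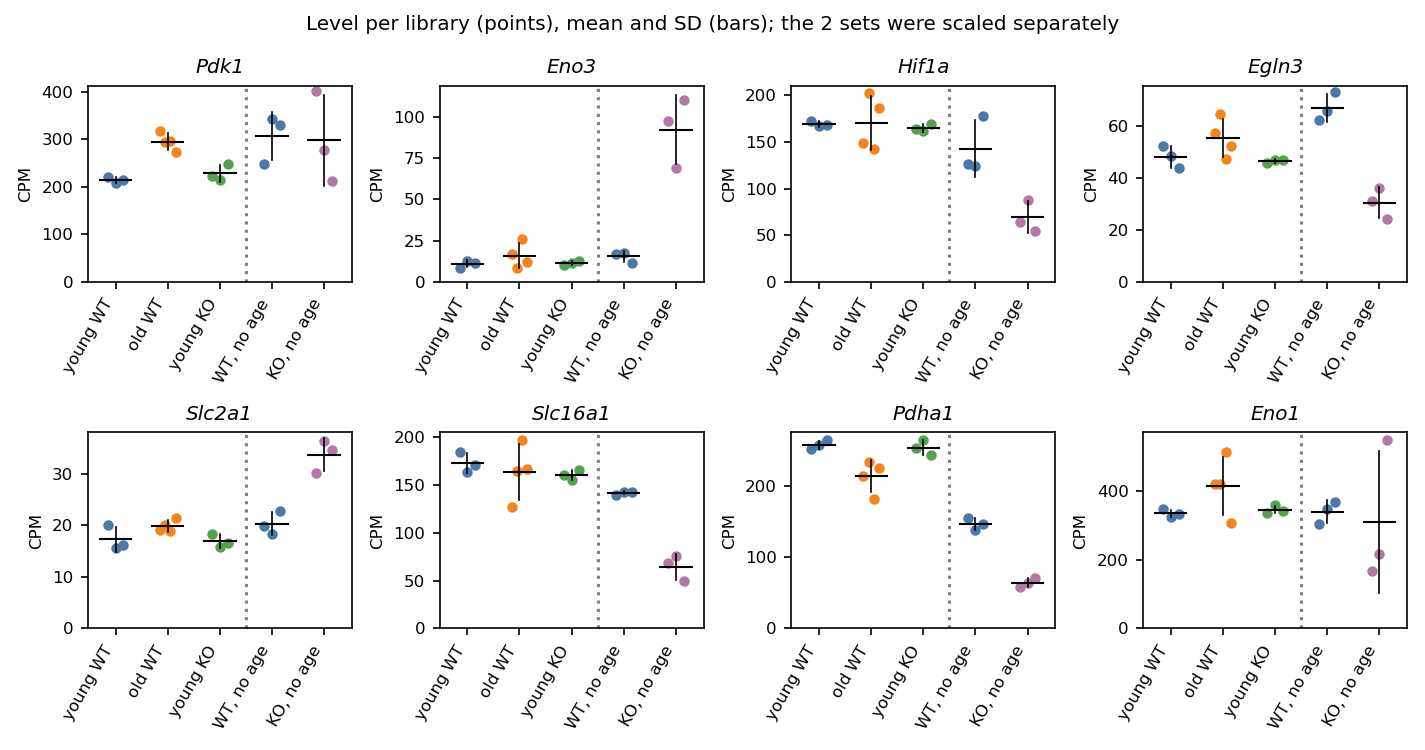
CPM of 8 genes in each library (points), with the mean and SD of each group; the sets with and without an age were scaled separately and are parted by a dotted line. Pdk1 lies between 273 and 317 CPM in old WT and between 207 and 220 in young WT, and Eno3 between 68.9 and 110 CPM in KO without an age against 11.7 to 17.7 in WT.

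The comparison of young KO with young WT asks what the METTL3 KO does at a young age, in libraries whose Mettl3 counts gave no difference past the threshold. It gave 0 calls among the 34 genes tested, as it did among all 14228 genes (0% called), with 0 of the 34 at p under 0.05 before adjustment against 0.618% of all genes, and 0 calls in DESeq2. The log2 differences ran from -0.19 ± 0.16 for Mpc1 to 0.34 ± 0.33 for Slc16a3, with a median of -0.03 against 0.00 over all genes, and 11 of 34 were above 0 against 49.7%. The smallest p belonged to Pgk1, with 214, 203 and 214 CPM in young WT and 199.8, 176 and 198 in young KO (-0.14 ± 0.11, 95% interval -0.37 to 0.10). Pgk1 was lower in each of the 3 libraries labelled young KO, Pdk2 likewise (16.1, 15.3 and 14.7 CPM in WT and 14.7, 13 and 13.9 in KO), and Pkm was higher in each (418, 413 and 428 CPM in WT and 429.7, 477 and 435 in KO). Such a lack of overlap was found for 3 of 34 genes and for 9.26% of all genes, with 1 of the 3 higher (4.57% of all genes) and 2 lower (4.69%).

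Mpc1 had 17.7, 25.9 and 22.9 CPM in young WT and 18.1, 19.1 and 21 in young KO, and the groups overlapped. Slc16a3 had 2.67, 1.58 and 1.89 CPM in young KO, of which replicates 1 and 3 lay above the young WT libraries, and Slc16a1 had 159.9, 155 and 166 against 185, 164 and 171 (-0.11 ± 0.13). Pdk1 had 222, 215 and 249 CPM (0.10 ± 0.09, 95% interval -0.10 to 0.29). The 95% intervals of abundant genes were -0.26 to 0.22 for Ldha, -0.24 to 0.19 for Pdha1, -0.27 to 0.36 for Eno1 and -0.30 to 0.22 for Hif1a. This comparison and that with old WT share the 3 young WT libraries.

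The comparison of KO with WT without an age is the same question in libraries where Mettl3 was lower. Eno3 (ENSMUSG00000060600, mm10 chr11:70657202-70662513), the muscle form of enolase, was 6.02-fold higher in KO, and the glucose transporter Slc2a1 (GLUT1), the aldolase gene Aldoc, Gpi1 and Pfkm were higher too. The hypoxia genes Hif1a, Egln1, Egln3 and Bnip3, the pyruvate dehydrogenase genes Pdha1 and Dlat, and the kinases Pdk2 and Pdk3 were lower. So were the lactate transporter Slc16a1, the glucose transporter Slc2a3, and Pfkfb3, Pgk1 and Pgam1. That is 18 of 36 identifiers called, 5 higher and 13 lower, in a comparison where 53.9% of 16432 genes were called, 29.9% higher and 24% lower. Calls were thus about as common over all genes as among these. The median log2 difference was -0.13 over the 36 and 0.08 over all genes. Before adjustment, 18 had p under 0.05, as did 59.6% of all genes. A total of 20 of the 36 did not overlap between the groups, against 63.9% of all genes, with 6 higher (34.1% of all genes) and 14 lower (29.7%).

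**Figure D4:**
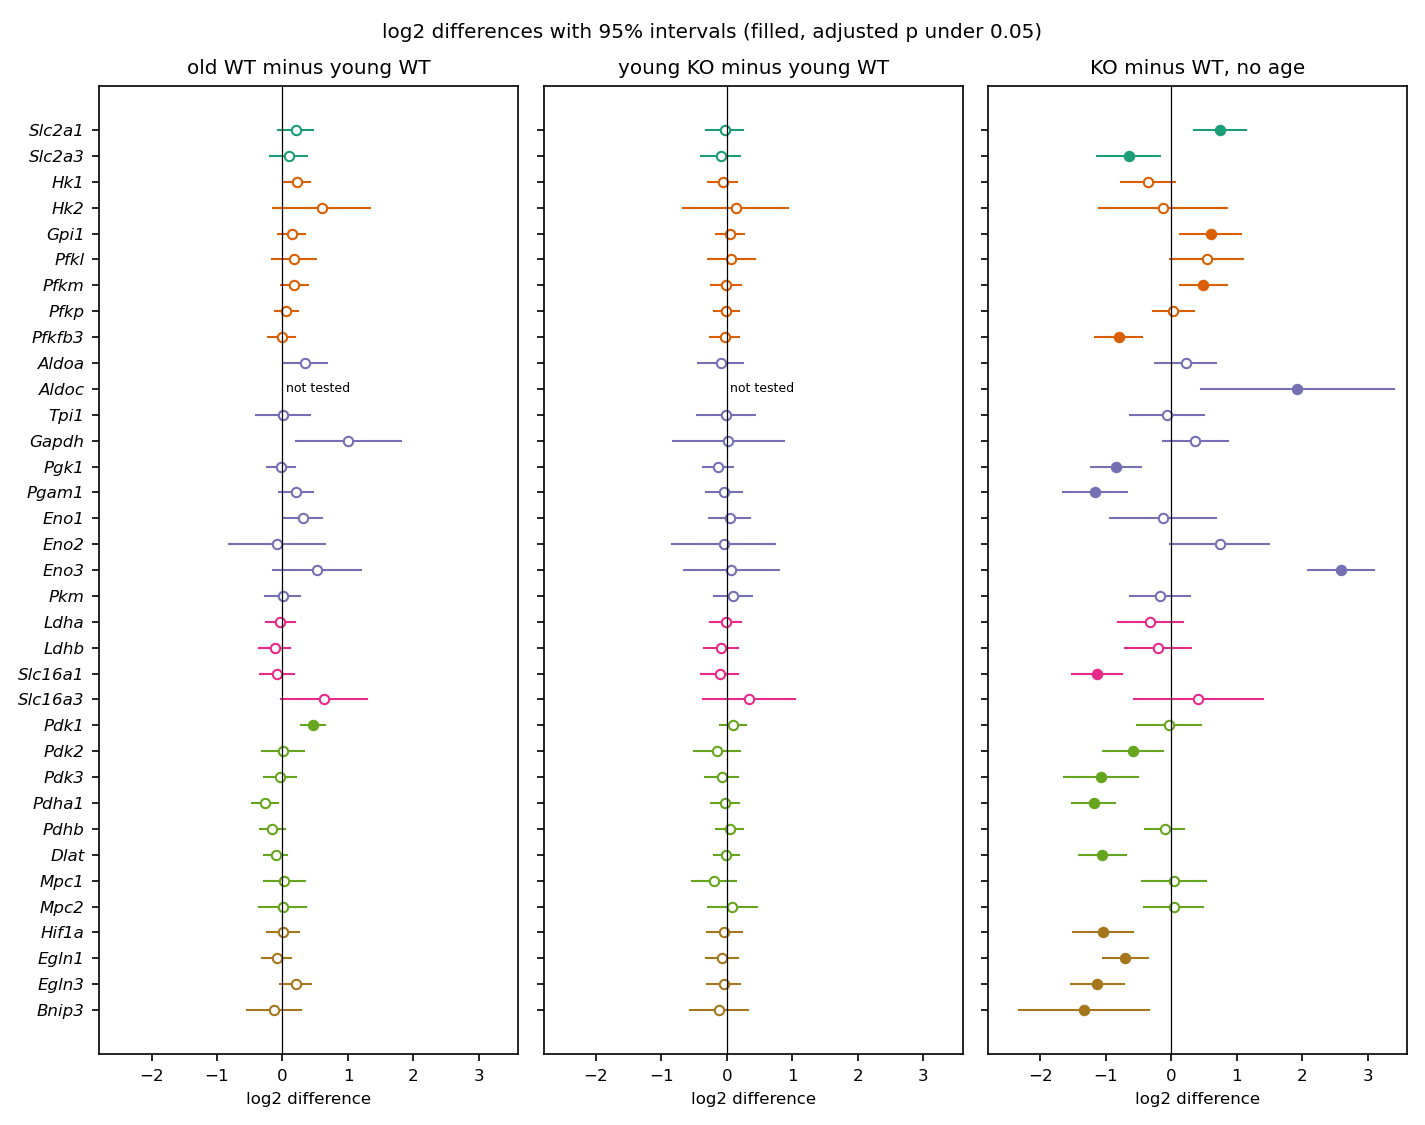
log2 difference of each gene with its 95% interval in the 3 comparisons (filled points, adjusted p under 0.05; colours, role as in the plot of levels per kilobase; Aldoc was too low to test in libraries with an age). Filled points number 1 with age, 0 for young KO and 18 for KO without an age, where the interval of Eno3 runs from 2.09 to 3.09.

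At the entry of glucose, the 2 transporters moved in opposite directions. Slc2a1, the widely expressed basal transporter, had 19.9, 18.2 and 22.7 CPM in WT and 30.2, 36.4 and 34.5 in KO without an age. The groups did not overlap, and the log2 difference was 0.74 ± 0.18 (edgeR adjusted p = 0.00533). Slc2a3, the high-affinity transporter GLUT3 of neurons and lymphocytes, had 27.4, 31.4 and 31.1 CPM in WT and 24.9, 16.6 and 15.4 in KO, a log2 difference of -0.65 ± 0.22 (adjusted p = 0.0243 by edgeR). KO replicate 1 lay close to WT, and the call was lost with library-size scaling and without WT replicate 2 or 3 (adjusted p from 0.0509 to 0.0605). The share of Slc2a1 in the summed CPM per kilobase of the pair was 58.2 ± 3.2% in WT and 78.5 ± 6.13% in KO (SD, n = 3 each), without overlap. In the libraries with an age, Slc2a1 ran from 15.6 to 21.4 CPM and Slc2a3 from 23.1 to 31.9.

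Among the hexose steps, Gpi1 had 226, 228 and 212 CPM in WT and 288, 253 and 468 in KO (0.60 ± 0.21, edgeR adjusted p = 0.0305). KO replicate 3 stood far above the rest, and without it the log2 difference was 0.22 ± 0.13 (adjusted p = 0.162). The call was also lost without any of the 3 WT libraries (adjusted p from 0.0929 to 0.123). Pfkm, the muscle phosphofructokinase, had 42.2, 44.2 and 34.8 CPM in WT and 57, 51.5 and 61.3 in KO (0.49 ± 0.17, edgeR adjusted p = 0.0266), and its call was lost without any of the 3 WT libraries or KO replicate 1 or 3 (adjusted p from 0.0673 to 0.153). Pfkfb3, whose product makes the activator of phosphofructokinase, had 83, 86.1 and 97.1 CPM in WT and 46, 58.6 and 47.3 in KO. Every KO library was below every WT library, with a log2 difference of -0.80 ± 0.16 (edgeR adjusted p = 0.00181). Hk1, Hk2, Pfkl and Pfkp were not called: Hk1 had 118, 126 and 109.6 CPM in WT and 66.4, 98.4 and 110.5 in KO (-0.36 ± 0.19), Pfkl 37.9 to 47.7 and 39.2 to 89.2 (0.54 ± 0.26), and Pfkp 152 to 162 and 143 to 178 (0.03 ± 0.14). Hk2 had at most 3.56 CPM in this set (-0.13 ± 0.45).

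The triose steps held the largest rise. Eno3 had 16.8, 17.7 and 11.7 CPM in WT and 97.6, 68.9 and 110 in KO without an age, a log2 difference of 2.59 ± 0.23 (edgeR adjusted p = 4.73e-05). The lowest KO library was far above the highest WT library, and the call held in every alternative run, with log2 differences from 2.37 to 2.84. Eno1, the main enolase, had 304, 347 and 369.7 CPM in WT and 168, 216 and 549 in KO. It did not pass (-0.12 ± 0.37, adjusted p = 0.795 by edgeR), with KO replicates 1 and 2 below and replicate 3 above WT. Of summed enolase CPM per kilobase, Eno3 took 8.85% to 14.4% in WT and 38% to 63.4% in KO, against 7.08% to 10.6% in young WT, 5.86% to 13.5% in old WT and 8.62% to 10.3% in young KO. These shares rest on exon lengths of 5379 bases for Eno1 and 1739 for Eno3. In CPM, not divided by length, Eno1 lay above Eno3 in each KO library (168, 216 and 549 against 97.6, 68.9 and 110). Eno2, the neuronal form, had 2.48 to 3.52 CPM in WT and 4.09 to 5.99 in KO (0.74 ± 0.35) and was not called.

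Pgk1 had 169, 172 and 145 CPM in WT and 83.8, 74.4 and 111 in KO (-0.84 ± 0.18, edgeR adjusted p = 0.00216), and Pgam1 (phosphoglycerate mutase, the next step) 45.3, 48.6 and 42.2 in WT and 13.5, 24.2 and 22.6 in KO (-1.17 ± 0.22, adjusted p = 0.00129). Neither gene overlapped between the groups, and both kept their calls in every alternative. Pgk1 lies on the X chromosome. With sex as a covariate, where KO replicate 3 alone is set against WT, its log2 difference was -0.54. Aldoc had 5, 12 and 6 counts in WT and 18, 10 and 44 in KO, or 0.326, 0.762 and 0.39 CPM in WT and 1.48, 0.87 and 3.31 in KO (1.93 ± 0.67, edgeR adjusted p = 0.0303), a call lost without KO replicate 3 (1.17 ± 0.74, adjusted p = 0.197) and without WT replicate 1 or 3 (0.108 and 0.102). Aldoa (89.2, 87.4 and 78.5 CPM in WT and 92.5, 69.9 and 134 in KO, 0.22 ± 0.21), Gapdh (46.2, 53.2 and 34.9 CPM in WT and 43.8, 75.3 and 53.4 in KO, 0.37 ± 0.23), Tpi1 (35.8 to 60.2 and 37.4 to 67.6 CPM, -0.06 ± 0.26) and Pkm (386, 424 and 341 CPM in WT and 280.5, 274 and 466 in KO, -0.17 ± 0.21) did not pass. Each of the 4 overlapped between WT and KO.

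At the lactate step, Slc16a1 had 139.9, 143 and 143 CPM in WT and 68.5, 75.5 and 49.1 in KO (-1.13 ± 0.18, edgeR adjusted p = 0.000433). The WT libraries differed little from each other, and the call held in every alternative. Ldha had 339.6, 346 and 301 CPM in WT and 230.2, 184 and 372 in KO (-0.32 ± 0.23, adjusted p = 0.252 by edgeR), and Ldhb 462, 478 and 450 in WT and 341, 282 and 575 in KO (-0.21 ± 0.23, adjusted p = 0.465 by edgeR). In both genes KO replicates 1 and 2 lay below WT and KO replicate 3 above it, and the share of Ldhb in the pair overlapped between WT (74.2% to 75.9%) and KO (75.7% to 76.5%). Slc16a3 had 1.56, 2.16 and 1.5 CPM in WT and 1.8, 3.04 and 2.11 in KO (0.42 ± 0.45).

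KO replicate 3 thus decided several of these genes. Without it, 20 of the 36 identifiers were called, 2 higher (Slc2a1 and Eno3) and 18 lower, where 55.4% of 17805 genes were called, and the median over the 36 was -0.495 against 0.04 over all genes. The 13 lower calls of the full comparison were among these 18. Those added were Eno1 (-0.89 ± 0.16), Ldha (-0.73 ± 0.14), Ldhb (-0.64 ± 0.14), Hk1 (-0.58 ± 0.18) and Pkm (-0.53 ± 0.14). Replicate 3 was picked out because it was the highest KO library for these same genes. Their lower values without it follow from that choice and are no test. With all 3 KO libraries, none of these added genes was called. In that library the summed B cell markers were 1171 CPM, against 753 and 877 in the other KO libraries and 534.5 to 635.7 in WT, and it is the male KO library. The part of either in its glycolytic levels was not tested.

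For the route into the mitochondrion, Pdha1 had 156, 138 and 146 CPM in WT and 57.9, 64.5 and 70.7 in KO (-1.18 ± 0.15, edgeR adjusted p = 0.000157). Dlat had 50.1, 54.5 and 52.9 CPM in WT and 26.8, 25.8 and 22.7 in KO (-1.06 ± 0.16, adjusted p = 0.00042). Both were clearly separated and kept their calls in every alternative. Pdha1 is X-linked, and its log2 difference was -1.05 with sex as a covariate, where KO replicate 3 alone is set against WT. Pdhb, whose product forms 1 enzyme with that of Pdha1, had 164, 166 and 176 CPM in WT and 148, 163 and 158 in KO (-0.10 ± 0.14, 95% interval -0.40 to 0.20), and was not called, although the groups did not overlap. Of the summed CPM per kilobase of Pdha1, Pdhb and Dlat, Pdha1 held 42 ± 1.92% in WT and 27.4 ± 1.76% in KO, and Pdhb 46.6 ± 1.42% and 64.4 ± 0.91%.

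The kinases of this complex differed among themselves. Pdk3 had 27.6, 24.8 and 31.3 CPM in WT and 14.2, 8.35 and 17.2 in KO (-1.07 ± 0.26, edgeR adjusted p = 0.0049). Pdk3 is X-linked, and with sex as a covariate its log2 difference was -0.69, again KO replicate 3 alone against WT. Pdk2 had 22.6, 18.9 and 18.2 CPM in WT and 13.1, 15 and 11.6 in KO (-0.58 ± 0.21, adjusted p = 0.0341 by edgeR), and its call was lost with library-size scaling, with the replicate block, and without WT replicate 1 or 2 or KO replicate 1 (adjusted p from 0.0551 to 0.12). Pdk1, the gene that was higher in old WT, had 248, 342 and 330.3 CPM in WT and 402, 278 and 213 in KO, where replicate 1 was the highest and replicate 3 the lowest of the 6 libraries (-0.04 ± 0.22, 95% interval -0.53 to 0.45). Mpc1 (10.3, 10.3 and 11.2 CPM in WT and 11.2, 11.4 and 9.93 in KO, 0.04 ± 0.22) and Mpc2 (34.2 to 48 and 36.8 to 54.1 CPM, 0.04 ± 0.21) did not pass.

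**Figure D5:**
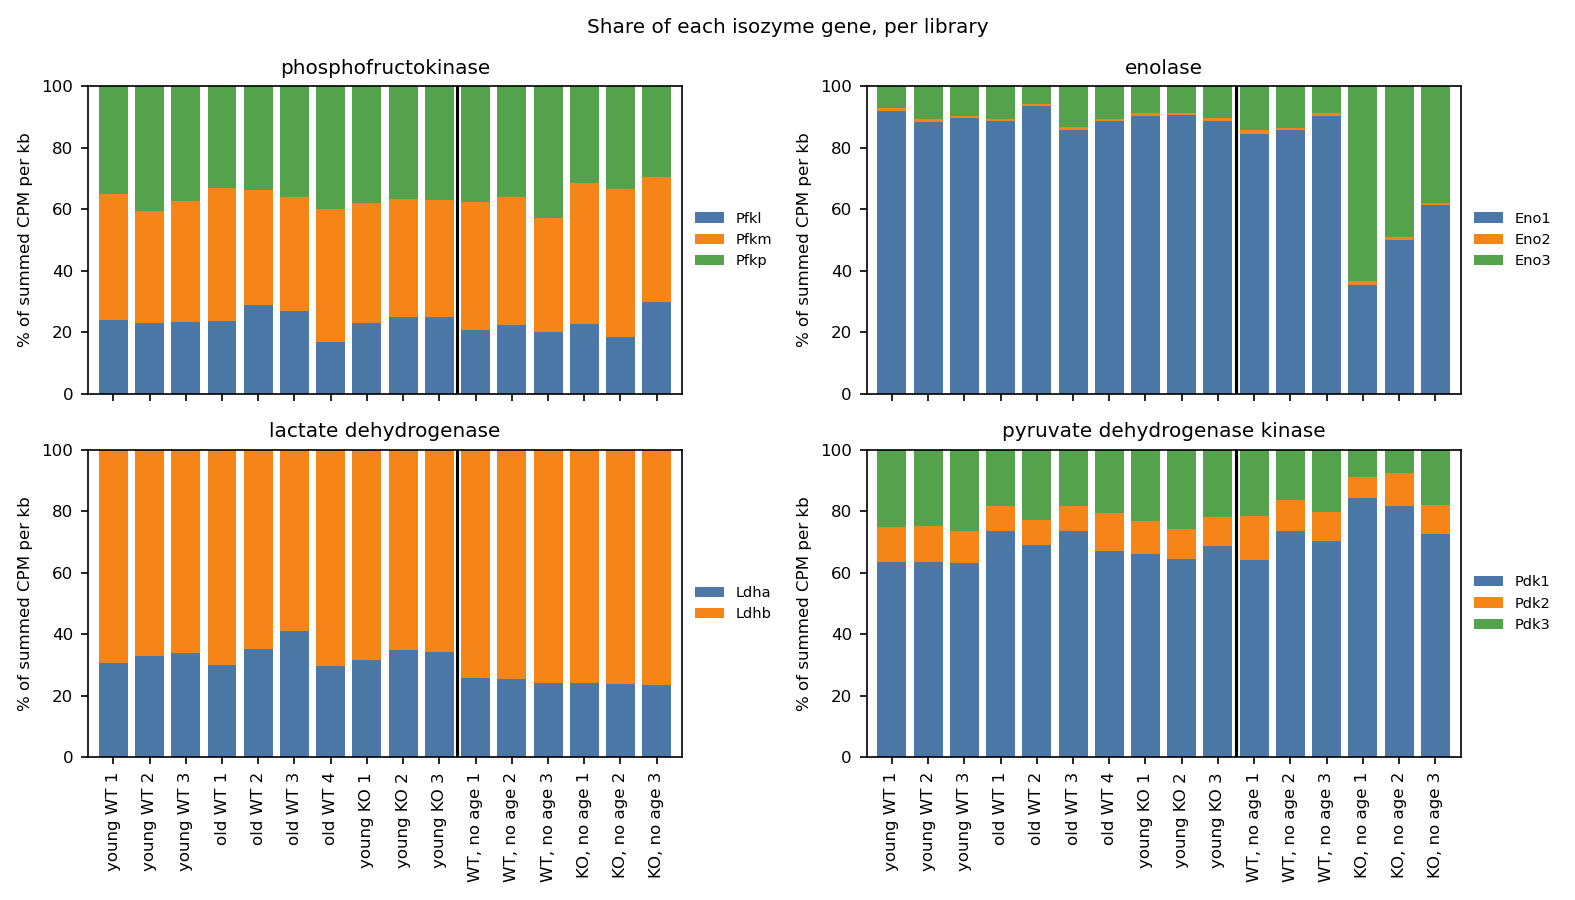
Share of each isozyme gene in the summed CPM per kilobase of its family, in % and per library, for phosphofructokinase, enolase, lactate dehydrogenase and PDK; the line parts the sets with and without an age. Eno3 takes 38.0% to 63.4% of enolase in the 3 KO libraries without an age and at most 14.4% in any other library, while Ldhb takes 74.2% to 76.5% of lactate dehydrogenase in the 6 libraries of that set. Shares depend on the annotated exon length of each gene.

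The 4 hypoxia genes were each called lower in KO without an age, where 24% of all genes were called lower. Their median log2 difference was -1.08 (0.08 over all genes). Hif1a (ENSMUSG00000021109, mm10 chr12:73901375-73947530), the oxygen-regulated subunit of HIF-1, had 126, 124 and 178 CPM in WT and 64.7, 88 and 54.8 in KO (-1.04 ± 0.21, edgeR adjusted p = 0.00179). WT replicate 3 stood above the other WT libraries, and the highest KO library was still below the lowest WT one. Egln3, a hydroxylase that is itself a HIF target, had 62.4, 66 and 73 CPM in WT and 31, 36.3 and 24.4 in KO (-1.13 ± 0.18, adjusted p = 0.000551). Egln1 had 119.5, 98.5 and 108 CPM in WT and 58.9, 66.3 and 74.2 in KO (-0.70 ± 0.16, adjusted p = 0.00317). These 3 calls held in every alternative. Bnip3, a HIF target that marks mitochondria for removal, had 55, 33 and 68 counts in WT and 19, 16 and 14 in KO. In CPM these were 3.59, 2.1 and 4.42 in WT and 1.56, 1.39 and 1.05 in KO (-1.33 ± 0.45, edgeR adjusted p = 0.0276). Bnip3 lost its call with the replicate block and without WT replicate 1 or 3 (edgeR adjusted p up to 0.0975). With sex as a covariate, where KO replicate 3 alone is set against WT, its log2 difference was -1.66. In the libraries with an age, Hif1a ran from 143 to 202 CPM, Egln1 from 92.8 to 129, Egln3 from 43.7 to 64.6 and Bnip3 from 4.56 to 7.1.

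The promoters of these 4 genes are shown because they moved together and because HIF-1 acts through a short core, ACGTG or GCGTG. Each line holds the 250 bases before the RefSeq start on GRCm38.p6 (first start listed; 5′ to 3′ along the gene's strand), with matches of the core on either strand in capitals, so that CACGT and CACGC also appear.
Hif1a (chr12:73907617-73907866, plus strand): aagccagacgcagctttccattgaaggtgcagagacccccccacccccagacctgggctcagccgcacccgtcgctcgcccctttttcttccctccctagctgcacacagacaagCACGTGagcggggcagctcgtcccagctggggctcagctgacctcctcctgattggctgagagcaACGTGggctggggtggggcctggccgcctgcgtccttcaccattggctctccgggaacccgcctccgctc
Egln1 (chr8:124949255-124949504, minus strand): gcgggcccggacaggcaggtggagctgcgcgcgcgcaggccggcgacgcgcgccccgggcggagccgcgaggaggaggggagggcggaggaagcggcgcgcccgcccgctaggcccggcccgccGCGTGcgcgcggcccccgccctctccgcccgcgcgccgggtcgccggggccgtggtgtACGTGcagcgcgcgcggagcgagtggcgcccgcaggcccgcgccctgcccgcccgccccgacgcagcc
Egln3 (chr12:54203875-54204124, minus strand): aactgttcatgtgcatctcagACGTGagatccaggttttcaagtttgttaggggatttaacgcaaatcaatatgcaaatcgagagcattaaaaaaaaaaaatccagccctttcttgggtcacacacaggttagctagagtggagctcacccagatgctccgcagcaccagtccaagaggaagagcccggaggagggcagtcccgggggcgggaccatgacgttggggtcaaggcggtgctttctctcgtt
Bnip3 (chr7:138909507-138909756, minus strand): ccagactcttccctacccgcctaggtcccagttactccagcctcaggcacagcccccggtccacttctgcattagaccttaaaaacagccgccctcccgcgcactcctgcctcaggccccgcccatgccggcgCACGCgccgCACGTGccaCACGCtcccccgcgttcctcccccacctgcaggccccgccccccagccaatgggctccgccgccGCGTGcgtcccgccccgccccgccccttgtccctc
The promoter of Pdk1, the gene called with age, is given for comparison, and its last pair of capitals begins a match that ends past the start.
Pdk1 (chr2:71872974-71873223, plus strand): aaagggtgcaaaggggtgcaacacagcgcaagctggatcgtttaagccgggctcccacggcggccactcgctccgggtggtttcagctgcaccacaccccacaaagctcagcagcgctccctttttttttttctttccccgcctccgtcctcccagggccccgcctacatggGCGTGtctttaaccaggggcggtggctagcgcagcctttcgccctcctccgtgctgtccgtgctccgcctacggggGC

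RefSeq windows of 300 bases (250 before to 50 after the first start listed) were found for 34 of the 35 genes. ACGTG was present on either strand in 18 of the 34 (52.9%), against 19.7% of 27025 genes. ACGTG or GCGTG was present in 27 (79.4%), against 43.8%, and CACGTG, which contains ACGTG, in 6 (17.6%), against 7.24%. A CACGTG reads the same on both strands and so counts as 2 ACGTG matches. The windows of these genes had a median GC content of 64.7% against 52.7%, and the core is rich in G and C. A match is a string of letters in this window and not a measured site. Such matches also stood before genes that were higher in KO without an age, such as Slc2a1, with 2, and Pfkm, with 3.

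Genes around the oxygen sensor that are not among the 35 moved in both directions in KO without an age. Of 10 tested regulators of HIF, 3 were lower and 1 was higher, where 24% of all genes were lower and 29.9% higher. Arnt, the partner of HIF-1α, stood at -1.11 ± 0.17 (edgeR adjusted p = 0.000432), Hif1an, which hydroxylates an asparagine of HIF-1α, at -0.95 ± 0.15 and Vhl at -0.78 ± 0.16, and Epas1, which encodes HIF-2α, at 0.93 ± 0.28. Of 17 tested other HIF targets, 6 were lower and 1 was higher, with a median of -0.55, where 53.9% of all genes were called in either direction. Those of smallest p were Ero1l, an oxidase of the endoplasmic reticulum (-0.90 ± 0.18), Mxi1, a Myc antagonist (-0.79 ± 0.17), Bnip3l, a relative of Bnip3 (-0.78 ± 0.18), and P4ha2, a collagen prolyl hydroxylase (2.22 ± 0.53). Without KO replicate 3, 8 of these 17 were lower and 1 was higher, against 55.4% of all genes called.

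In KO without an age, 53.9% of all genes were called, 29.9% higher and 24% lower, and none of the pathway lists below reached 53.9%. Of 12 tested other genes of pyruvate and lactate, Pdpr, which restrains the phosphatase that reactivates pyruvate dehydrogenase, had the smallest p (-2.25 ± 0.20, edgeR adjusted p = 4.73e-05). That phosphatase, Pdp1 (-1.05 ± 0.24), and the malic enzyme Me2 (-1.08 ± 0.15) were also lower, and Pck2, the mitochondrial phosphoenolpyruvate carboxykinase, was higher (1.49 ± 0.38). In the pentose phosphate pathway 3 of 8 genes were called: Rpe (-1.41 ± 0.18) and Tkt (-0.52 ± 0.17) of its non-oxidative arm were lower, and H6pd of the endoplasmic reticulum was higher (1.16 ± 0.15). Of 14 tested genes of other glycolytic steps, Pfkfb4 was higher (1.05 ± 0.22), and Pfkfb2 (-0.67 ± 0.22), Pgam2 (-1.20 ± 0.29) and Minpp1 (-0.76 ± 0.17) were lower. Of 15 regulators of glycolysis, Stk11, the kinase upstream of AMPK, was higher (0.92 ± 0.21), and Foxo1 (-0.85 ± 0.22) and the TOR genes Rictor (-0.83 ± 0.24) and Mtor (-0.53 ± 0.16) were lower.

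These differences ran beside changes in cell markers. Summed DP markers were 19740 to 21420 CPM in WT and 10990 to 13790 in KO without an age, and proliferation markers 3353 to 3607 and 1893 to 2258. A sum gives most weight to abundant genes. Of the 12 DP markers, 6 were called lower and 3 had a log2 difference above 0. Their median was -0.35, and the lowest was Rag1 at -2.44. Summed B cell markers were 534.5 to 635.7 CPM in WT and 752.6 to 1171 in KO, and myeloid and dendritic markers 106.4 to 127 and 151.8 to 193.6. Summed thymic epithelial markers were 12.6 to 13.8 CPM in WT and 20.5 to 22.0 in KO (2 of 4 tested called higher), and mature thymocyte markers 389 to 475 and 286 to 294 (of 10, 3 called lower and 1 higher). Over all genes, 29.9% were called higher and 24% lower. Most of the B cell sum was Ighm, named after its values were seen (501.8 to 601.1 CPM in WT and 645.2 to 1083 in KO). mt-Co1 took 0.764% to 1.21% of gene counts in WT and 2.15% to 4.16% in KO. Reads outside genes were 7.23% to 7.60% of all entries in WT and 11.9% to 15% in KO. The part of each in the levels above was not tested. A sex covariate leaves the KO difference of this set to KO replicate 3 against WT, since all WT libraries were male. That difference is then between male libraries, but an effect of sex cannot be told apart from what is particular to KO replicate 3.

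Whether the KO difference was the same in both sets was tested as an interaction over the 12 libraries of the 2 young and the 2 groups without an age. A total of 15 of 36 identifiers had unequal differences, against 36.9% of 16557 genes (18 at p under 0.05 before adjustment, against 47.1%), and the 15 are among the 18 called in KO without an age. Both tests use the libraries without an age, so this overlap is no separate result. The largest was Aldoc (3.26 ± 0.88, edgeR adjusted p = 0.00989), which rests on few counts, followed by Eno3 (2.69 ± 0.29, adjusted p = 2.71e-05). Pdha1 (-0.99 ± 0.13, adjusted p = 0.000104), Pgam1 (-0.95 ± 0.26), Egln3 (-0.91 ± 0.20), Dlat (-0.88 ± 0.16), Slc16a1 (-0.85 ± 0.19) and Hif1a (-0.83 ± 0.23) were on the negative side. Slc2a3 (-0.39 ± 0.25), Pdk2 (-0.26 ± 0.22) and Bnip3 (-1.04 ± 0.43, adjusted p = 0.0731) did not pass. Leaving out 1 library at a time ended the call of Gpi1 in 9 of 12 fits and that of Pfkm in 8. It ended the call of Slc2a1 without young WT replicate 1 (0.57, adjusted p = 0.059) or young KO replicate 2 (0.65, 0.0519), and that of Aldoc without young WT replicate 2 (2.67, 0.0571). Pgk1 lost its call without WT replicate 2 of the set without an age (-0.52, 0.052), and Egln1 without WT replicate 1 (-0.44, 0.0549). The replicate block ended the calls of Gpi1, Pgk1 (0.0873), Egln1 (0.0798) and Hif1a (0.0501), a sex covariate those of Pgk1 (0.0615), Pdk3 (0.0592) and Egln1 (0.0583), and no filter those of Gpi1 and Pfkm (values are edgeR adjusted p). Set, processing, the unstated age of 1 set and the Mettl3 difference, which was called only in that set, cannot be told apart here. The interaction term of Mettl3 itself was -0.41 ± 0.19 (edgeR adjusted p = 0.106). Sex adds to this, as the set without an age had only male WT libraries and both sexes in KO.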

How the data were processed

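RNA of sorted thymic DP cells was sequenced in 16 libraries, and the authors deposited read counts per Ensembl gene, made after alignment to mm10 with HISAT2 2.0.5 per the submitters' processing notes. The counter, its strand setting and its handling of reads that match several genes are not stated in the labels. Entries that name no gene stayed out of library sizes and tests. The 35 genes and the lists of markers and pathways were chosen with earlier results of these data known. Genes with low counts were removed with filterByExpr, libraries were scaled by TMM within each set, and groups were compared with the quasi-likelihood test of edgeR 4.0.16 over all genes, Benjamini-Hochberg adjusted at 0.05. Old and young WT and young KO shared 1 fit, WT and KO without an age had another, and the interaction used 12 libraries. CPM per kilobase used the exon union of GENCODE gene models. The text gives in full each gene called in any comparison, the 6 of smallest p in each, and the 10 of highest level per kilobase, and the others by range; of each pathway list it names at most the 4 called genes of smallest p. Alternatives were other size factors, other filters, DESeq2 1.42.0, limma-voom 3.58.1, the replicate number as a block, sex as a covariate, 2 groups alone, and each library left out. On simulated counts, 2-fold changes were recovered for 92% of changed genes with age, 88% in young KO, 70% in KO without an age and 54% in the interaction. Same-numbered libraries did not deviate together. Some marker genes are not reported here by name.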

Additional observations from a re-analysis of the deposited data

Results flagged for a closer look

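In 3 of the 35 genes, 1 old WT library stood apart from the other three by Dixon's criterion, which chance meets in about 1 in 20 groups. Hk2 was highest in replicate 3 (5.78 CPM), and Gpi1 (232.9 CPM) and Tpi1 (45.7 CPM) were lowest in replicate 4.

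The KO difference was unequal between the set without an age and the young set for 15 of 36 identifiers by the interaction term (edgeR), where 36.9% of 16557 genes were called. Set, processing, age and sex cannot be told apart in this term. The difference of log2 differences was above 0 for Aldoc (3.26), Eno3 (2.69), Slc2a1 (0.94), Gpi1 (0.72) and Pfkm (0.67). It was below 0 for Pdha1 (-0.99), Pgam1 (-0.95), Egln3 (-0.91), Dlat (-0.88), Slc16a1 (-0.85), Hif1a (-0.83), Pdk3 (-0.82), Pfkfb3 (-0.60), Pgk1 (-0.54) and Egln1 (-0.46).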

How the results depend on the processing

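Among the genes called in a comparison or of its 6 smallest p, no difference changed sign in the alternatives run. Signs of other genes did change. Those above 0 numbered 22 with age as reported and 17 to 23 over the alternatives, 11 and 10 to 16 in young KO, 13 and 10 to 17 in KO without an age, and 17 and 10 to 19 in the interaction. The median over the 36 identifiers in the interaction was -0.06 as reported and 0.03 with a sex covariate. The count of genes called with age was 0 under library-size scaling, a sex covariate or the 2 groups alone, and 0 to 1 with a library left out. In KO without an age it was 13 to 18 over other settings, the sex covariate set aside, and 13 to 20 with a library left out. In the interaction it was 11 to 15 and 12 to 19, and in young KO 0 throughout. Over all genes, 36 were called with age, against 153 with DESeq2 (71.2% of them higher, against 50%), 85 with no filter (69.4%), 61 with the block (65.6%), 11 with the 2 groups alone and 8 to 59 with a library left out. The share of interaction calls that were higher was 52%, against 36.3% with no filter, 32.7% to 34.2% without a young library and 37.9% to 39.2% without a KO library of no stated age. The calls of Gpi1, Pfkm and Aldoc in KO without an age were also lost with no filter and with the block. The median of all genes in KO without an age moved from 0.08 to 0.53 with no filter. The cause was not tested. Few counts limit Aldoc, Slc16a3, Hk2 and Bnip3.

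Replicate numbers did not pair the libraries (correlations of same-numbered deviations from -0.241 to 0.083). With the replicate block, 1 gene was called with age, 0 in young KO, 13 in KO without an age (46.5% of all genes, against 53.9% as reported) and 11 in the interaction (27.4%, against 36.9%).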
